A study of Mus musculus with 10 samples.

Results

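Skeletal muscle of transgenic mice given AP20187 was compared with untreated wild type muscle, the longest distance between muscle groups that the series allows. It rests on 4 of the 10 single-colour arrays: 2 of muscle from mice carrying hSA::Fv2E-PERK and injected with AP20187, and 2 of muscle from wild type mice that received nothing, chosen by their sample labels alone. Both groups were male C57BL/6J mice. The transgenic mice received AP20187 at 1 ng/g into the peritoneum and their muscle was taken 12 h later. The 2 arrays of transgenic muscle collected 12 h after vehicle (4% ethanol, 10% PEG-400 and 1.75% Tween-20 in water) served to divide the distance into a vehicle step (transgenic vehicle against wild type) and an AP20187 step (AP20187 against vehicle in transgenic). The sum of both steps is the difference between AP20187 transgenic and wild type muscle. The 4 arrays of C2C12 cells were not compared here. They entered only the choice of the probe for each gene and an alternative fit on all 10 arrays. Nothing in the labels says that the 2 samples of a group came from separate animals, so p-values measure the spread between these samples. The labels name neither the muscle nor the age of the mice.

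PERK is a kinase of the endoplasmic reticulum that phosphorylates the translation initiation factor eIF2 when unfolded proteins accumulate. General translation then slows while ATF4 is made, and ATF4 with its partners raises genes for amino acid uptake, amino acid synthesis, tRNA charging and stress signalling, a programme called the integrated stress response (ISR). Fv2E-PERK is the kinase domain fused to a domain that AP20187 brings together, so that the kinase can be switched on without unfolded proteins. The hSA prefix stands for the human skeletal actin promoter, which is active in muscle fibres. The wild type mice had neither the transgene nor an injection, so a difference from them contains the transgene, the injected fluid and, in the AP20187 group, the drug.

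Both wild type arrays shared a slide and scan, and all 4 transgenic arrays shared another, per the file headers. Slide and genotype therefore cannot be told apart in the vehicle step or in the sum, while the AP20187 step lay within 1 slide. Between 46.6% and 53.1% of gene probes were well above background on the 6 muscle arrays, with the wild type arrays at the top of that range, and no spot was saturated. Over 7 spike-in controls, of which 1 lay below the level of probes called above background, the median log2 difference was -0.28 between AP20187 transgenic and wild type arrays, and the median over all 13542 tested genes was 0.04. For the spike-ins and all genes, these medians were -0.06 and 0.09 in the vehicle step, and -0.22 and -0.11 in the AP20187 step. Of the 10 muscle fibre markers, all were well above background on every muscle array. A level below is the log2 processed signal of a probe relative to the 75th percentile of its array, and a difference is AP20187 transgenic minus wild type unless a step is named. A gene is said to have risen, fallen or changed where limma's test gave a Benjamini-Hochberg adjusted p under 0.05 over all tested genes.

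Of the 13542 genes tested, 7070 (52.2%) differed between AP20187 transgenic and wild type muscle, 4003 upward (29.6%) and 3067 downward (22.6%). Scaling on probes detected on all 6 arrays turned that split to 3271 upward and 3824 downward, with the median of all genes at -0.08 in place of 0.04. At least a 2-fold difference was reached by 1188 risen genes (8.77%) and by 1184 fallen ones (8.74%). The vehicle step held 5184 changed genes (38.3%, with 25.7% higher and 12.6% lower, and 8.36% at 2-fold or more) and the AP20187 step 3965 (29.3%, with 14.3% higher and 15% lower, and 5.3% at 2-fold or more). Wild type and AP20187 arrays did not overlap for 77.7% of genes, so a lack of overlap alone is common here. With a background this high, a list in which a few members changed is not set apart from other genes by its count. All gene lists below were chosen with earlier results of these data known, so their counts are descriptions. Each count is read against the share of all genes given here for the same step or for the sum.

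The ISR genes were far above wild type and had mostly moved in both steps. Of 29 regulators and classical targets tested, 25 rose and 1 fell (Vldlr), with a median difference of 2.40 against 0.04 over all genes, and 21 rose at least 2-fold. The same list had a median of 1.24 in the vehicle step and 1.11 in the AP20187 step. In 15 of the 29, both steps and the sum were upward changes. These counts are read against 29.6% of all genes that rose in the sum.

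**Figure D1:**
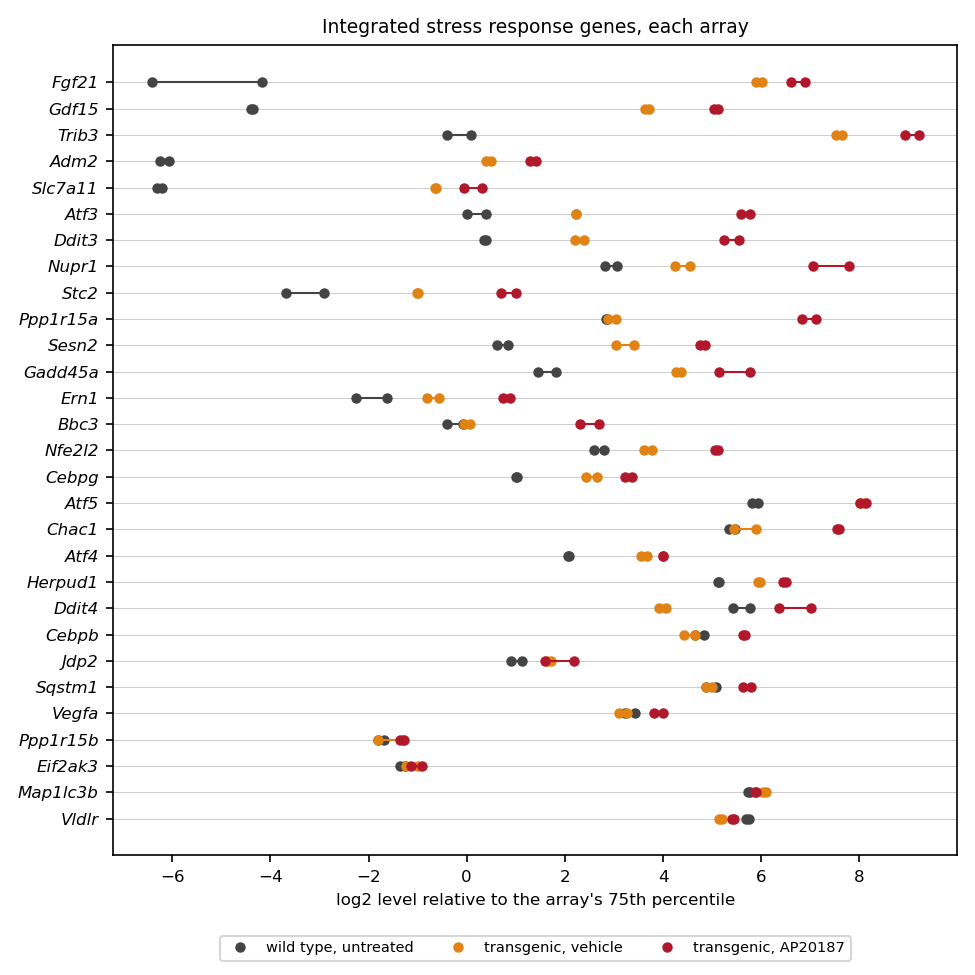
Log2 level of 29 ISR genes relative to the 75th percentile of each array, with 1 point per array and a line joining the 2 arrays of a group, ordered by the difference between AP20187 transgenic and wild type muscle. Fgf21 and Gdf15 lie far to the right of their own wild type points in both transgenic groups, while Ppp1r15a and Chac1 lie apart from wild type in the AP20187 group and beside it in the vehicle group.

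Among the regulators, Atf4, the transcription factor at the centre of the response, stood at 2.06 and 2.09 in wild type, 3.54 and 3.68 after vehicle, and 4.01 and 3.99 after AP20187. All AP20187 values lay above all others, and the difference from wild type was 3.79-fold (log2 1.92, SE 0.09, adjusted p = 7.12e-06). Atf5, a related factor, went from 5.93 and 5.81 to 8.02 and 8.14, a 4.63-fold difference. Its level after AP20187 was that after vehicle (8.01 and 8.09), with a log2 AP20187 step of 0.03 (adjusted p = 0.823). Ddit3, which encodes the pro-apoptotic factor CHOP, read 0.38 and 0.36 in wild type, 2.39 and 2.21 after vehicle, and 5.23 and 5.55 after AP20187. The 3 groups did not overlap, and the sum was 32.4-fold (adjusted p = 3.26e-07). Atf3 rose 44.9-fold along the same path, from -0.00 and 0.39 through 2.22 and 2.22 to 5.77 and 5.60. Nupr1, a stress-induced chromatin protein, rose 22.3-fold.

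Feedback regulators separated by step. Trib3, a pseudokinase that restrains ATF4, stood at 0.10 and -0.41 in wild type, 7.53 and 7.66 after vehicle, and 8.93 and 9.21 after AP20187. It was 599.6-fold above wild type (log2 9.23, SE 0.17), and most of this distance was already there after vehicle. Ppp1r15a, the subunit that directs dephosphorylation of eIF2, gave 2.87 and 2.85 in wild type, 3.04 and 2.88 after vehicle, and 6.84 and 7.11 after AP20187. Wild type and vehicle values lay side by side, and the 17.4-fold sum (adjusted p = 5.2e-07) came with a log2 vehicle step of 0.11 (adjusted p = 0.505). Chac1, which degrades glutathione, showed the same order at 5.47 and 5.35, then 5.90 and 5.44, then 7.60 and 7.54, a 4.45-fold sum. Sesn2, an inhibitor of growth signalling, rose 16.8-fold in steps of log2 2.50 and 1.57. Ppp1r15b, the constitutive eIF2 phosphatase subunit, was at a difference of 0.43 (adjusted p = 0.114). Eif2ak3, the gene for PERK itself, was at 0.29 (SE 0.16, adjusted p = 0.173), and since its probe is not known to lie within the fused part, it does not check the transgene.

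The secreted stress factors Fgf21 and Gdf15 had the largest fitted rises in the sum. Fgf21, an endocrine regulator of fuel use, was not well above background on either wild type array (-4.18 and -6.42), read 5.89 and 6.01 after vehicle, and 6.60 and 6.89 after AP20187. It was at least 1947-fold above wild type, the brighter mean being set against the lowest signal called above background on each wild type array or the probe's own signal where that was higher, as for every bound below. Its AP20187 step of log2 0.80 had an SE of 0.58 and an adjusted p of 0.321. That SE pools the spread within every group, including the wild type pair below background. The standard deviation of the wild type pair was 1.59, against 0.09 for the vehicle pair and 0.21 for the AP20187 pair. Both AP20187 values of Fgf21 lay above both vehicle values, so the missed threshold does not show that the step was absent. Gdf15, a circulating signal that suppresses appetite, was likewise not well above background in wild type (-4.36 and -4.39) and read 3.72 and 3.63 after vehicle and 5.12 and 5.03 after AP20187. The sum was at least 630.5-fold, and its AP20187 step of 2.64-fold was a rise (adjusted p = 0.000353). Soat2, a cholesterol esterifying enzyme, and Fut1, a fucosyltransferase, were not well above background in wild type either and stood at least 330.4-fold and 93.5-fold higher. Adm2, a vasoactive peptide, was at least 47.55-fold higher, and Stc2, a secreted glycoprotein, rose in both steps (log2 2.29 and 1.86). Of 18 secreted factors tested, 9 rose and 5 fell.

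Genes of amino acid synthesis moved mainly in the vehicle step. Of 24 genes of amino acid synthesis and one-carbon metabolism, 15 rose and none fell, with a median difference of 0.76, and 10 of them had changed in the vehicle step and not in the AP20187 step. Asns, asparagine synthetase, went from 0.65 and 0.30 in wild type to 6.03 and 6.23 after vehicle and 6.47 and 6.73 after AP20187. Its sum was 69.7-fold, of which the AP20187 step gave 1.38-fold (adjusted p = 0.0484). Psat1, of serine synthesis, was 24.5-fold above wild type with AP20187 values of 2.14 and 2.36 beside vehicle values of 2.43 and 2.44. Mthfd2, the mitochondrial folate enzyme, was 47.4-fold above wild type in the same manner (log2 steps 5.39 and 0.18). Aldh18a1, of proline synthesis, rose in both steps (log2 3.57 and 0.78).

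Of 22 amino acid transporters, 11 rose and 3 fell, with a median difference of 0.80. The vehicle step held 8 rises and 4 falls (median 0.43), and the AP20187 step 9 rises and 2 falls (median 0.41). The cationic transporter Slc7a3 was not well above background in wild type (-6.19 and -5.79) and read 2.17 and 2.58 after AP20187, at least 97.1-fold higher. Slc7a11, the cystine transporter, went from -6.21 and -6.30 through -0.62 and -0.65 to -0.05 and 0.31, at least 20.5-fold. Slc7a5, the leucine transporter, rose 24.5-fold and Slc7a1, which carries arginine, rose 20.9-fold, both in 2 upward steps.

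Cytosolic tRNA synthetases shifted together by smaller amounts. Of 20 tested, 16 rose and none fell, with a median of 1.09, and 11 of the 16 rose in the vehicle step without a further change. Lars, for leucine, went from 3.42 and 3.42 to 4.69 and 4.69 and then to 5.42 and 5.58, a 4.22-fold sum. Gars, for glycine, stood at 6.46 and 6.36, then 8.06 and 8.20, then 8.24 and 8.42, and its AP20187 step was 0.20 (adjusted p = 0.179).

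Promoters of these genes are shown because the same short element lies in genes that took different paths from wild type. RefSeq promoters (GRCm38.p6, 250 bases before to 50 after the start) were searched on both strands for TGATGNAA, the core of the element bound by C/EBP and ATF proteins, and for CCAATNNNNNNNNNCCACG, the endoplasmic reticulum stress element. The first was found in 9 of the 28 ISR genes with a promoter in the table (32.1%) and in 5 of 13 tRNA synthetases (38.5%), against 321 of 10780 tested genes (2.98%). The second was in 10 of 23 genes for chaperones of the endoplasmic reticulum (43.5%), against 17 of the 10780 tested genes (0.158%), and in none of the 28 ISR genes. The first element was in 4.26% of the promoters of genes that rose in both steps, 3.46% for the vehicle step only and 3.38% for the AP20187 step only, beside 2.98% for all tested genes. The ISR and chaperone lists hold genes already known for these responses. Their high shares may follow from that choice and are not a result of these arrays. A match describes letters and not a bound site. In the lines below, capitals mark each match, and a match on the opposite strand reads as the reverse complement. Fgf21, Asns and Slc7a11 had most of their distance after vehicle, Nupr1 and Chac1 had it after AP20187, and Hspa5 holds the second element.

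Fgf21, chr7:45615441-45615740, - strand: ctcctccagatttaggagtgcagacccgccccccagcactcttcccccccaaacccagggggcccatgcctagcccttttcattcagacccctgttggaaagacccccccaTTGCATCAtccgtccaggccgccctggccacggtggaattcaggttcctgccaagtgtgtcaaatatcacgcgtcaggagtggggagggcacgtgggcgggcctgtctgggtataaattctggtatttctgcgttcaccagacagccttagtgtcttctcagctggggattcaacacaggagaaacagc

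Asns, chr6:7693160-7693459, - strand: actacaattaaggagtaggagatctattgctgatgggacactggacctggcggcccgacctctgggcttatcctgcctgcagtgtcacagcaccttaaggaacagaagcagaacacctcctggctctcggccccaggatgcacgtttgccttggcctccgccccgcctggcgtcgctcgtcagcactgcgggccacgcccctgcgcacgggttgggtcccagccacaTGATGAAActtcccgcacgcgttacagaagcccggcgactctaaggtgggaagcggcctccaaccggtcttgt

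Slc7a11, chr3:50443564-50443863, - strand: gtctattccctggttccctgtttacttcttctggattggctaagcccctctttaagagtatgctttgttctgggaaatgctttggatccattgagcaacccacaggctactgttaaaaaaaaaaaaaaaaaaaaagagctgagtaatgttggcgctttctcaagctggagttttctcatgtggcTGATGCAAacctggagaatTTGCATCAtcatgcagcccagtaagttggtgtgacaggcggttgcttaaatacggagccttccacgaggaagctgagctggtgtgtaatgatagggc

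Nupr1, chr7:126625421-126625720, - strand: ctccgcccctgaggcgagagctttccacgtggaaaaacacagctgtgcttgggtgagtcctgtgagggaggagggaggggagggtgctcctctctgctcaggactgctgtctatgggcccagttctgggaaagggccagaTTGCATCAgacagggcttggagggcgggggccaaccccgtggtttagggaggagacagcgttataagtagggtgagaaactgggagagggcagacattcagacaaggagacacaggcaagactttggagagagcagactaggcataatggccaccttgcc

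Chac1, chr2:119350992-119351291, + strand: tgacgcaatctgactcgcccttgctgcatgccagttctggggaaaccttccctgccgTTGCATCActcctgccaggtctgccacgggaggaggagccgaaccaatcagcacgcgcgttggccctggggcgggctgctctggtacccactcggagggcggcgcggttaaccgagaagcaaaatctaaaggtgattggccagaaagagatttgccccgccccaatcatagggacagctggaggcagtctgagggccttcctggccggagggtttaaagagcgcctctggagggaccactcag

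Hspa5, chr2:34771840-34772139, + strand: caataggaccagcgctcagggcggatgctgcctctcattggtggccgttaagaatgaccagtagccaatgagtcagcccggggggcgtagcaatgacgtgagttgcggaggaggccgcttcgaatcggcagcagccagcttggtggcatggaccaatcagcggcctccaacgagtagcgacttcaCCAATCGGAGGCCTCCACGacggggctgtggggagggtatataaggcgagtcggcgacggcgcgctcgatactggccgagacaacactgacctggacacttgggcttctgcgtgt

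Genes of protein folding rose modestly. Of 27 chaperones and folding factors of the endoplasmic reticulum, 21 rose and none fell, with a median of 0.54, and 9 of them reached 2-fold. Hspa5, which encodes BiP, stood at 5.08 and 5.13 in wild type, 6.04 and 6.07 after vehicle, and 6.39 and 6.51 after AP20187. The groups were apart at each step and the sum was 2.54-fold (adjusted p = 3.39e-05). Xbp1, whose product drives chaperone genes, rose 3.12-fold and Atf6, another sensor of unfolded proteins, 3.38-fold, both in 2 steps. Derl1, of protein export for degradation, rose 2.35-fold with a log2 AP20187 step of -0.14 (adjusted p = 0.264). Of the 10 genes with the endoplasmic reticulum stress element, 7 rose, while Dnajc3 (0.23), Ero1b (-0.17) and Pdia6 (0.09) did not pass the test. Mitochondrial chaperones and proteases counted 10 risen of 12, led by Hspa9, mortalin, at log2 1.65.

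Among 19 targets of the antioxidant factor NRF2, 11 rose and 6 fell. Srxn1, sulfiredoxin, went from 2.49 and 2.49 through 4.75 and 5.22 to 7.59 and 7.82, a 37.1-fold rise with groups apart at each step. Osgin1, an oxidative stress gene, moved in the AP20187 step alone, from 2.46 and 2.37 in wild type and 2.80 and 2.51 after vehicle to 4.75 and 4.88. Gclm, of glutathione synthesis, rose in both steps (log2 1.03 and 0.50).

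Genes of the translation machinery stood above wild type. Of 41 cytosolic ribosomal proteins, 38 rose and none fell, with a median of 0.63, and 2 reached 2-fold. All 41 had risen in the vehicle step (median 0.86, against 0.09 over all genes). In the AP20187 step 12 fell, with a list median of -0.28 against -0.11 over all genes. Under quantile normalization 32 rose in the sum, and the AP20187 step held no fall and 1 rise. In the authors' deposited log2 table that step held no fall, and leaving out single arrays gave 0 to 20 falls, with 0 without vehicle replicate 2 or AP20187 replicate 1, 4 without either wild type array or AP20187 replicate 2, and 20 without vehicle replicate 1. Rps19 read 5.87 and 5.74 in wild type, 7.01 and 7.24 after vehicle, and 6.84 and 6.96 after AP20187. Its AP20187 arrays lay below vehicle and above wild type. The AP20187 step of Rps19 did not pass the test, so it is not among the 12 falls. Of 28 translation factors, 18 rose and 4 fell. Eif4ebp1, the inhibitor of cap-dependent initiation, rose 7.52-fold in both steps, while Eef1a1, an elongation factor, stood at 5.10 and 5.03, then 7.11 and 7.25, then 7.18 and 7.15.

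**Figure D2:**
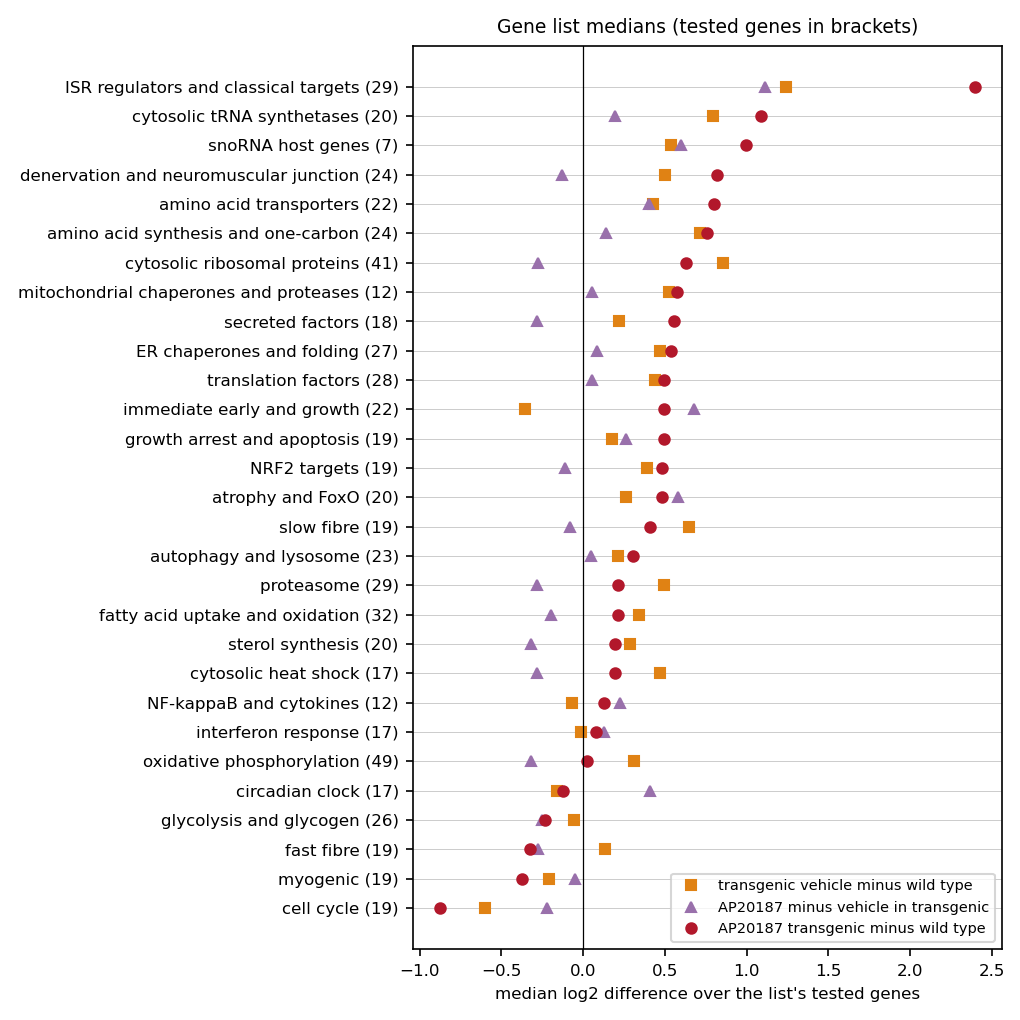
Median log2 difference over the tested genes of 29 functional gene lists (number tested in brackets) for AP20187 transgenic minus wild type (circles), transgenic vehicle minus wild type (squares) and AP20187 minus vehicle (triangles). The ISR list lies farthest to the right at 2.40 and the cell cycle list farthest to the left at -0.88, while ribosomal proteins and oxidative phosphorylation have squares to the right of 0 and triangles to the left. Over all genes the medians were 0.04 (sum), 0.09 (vehicle step) and -0.11 (AP20187 step).

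Among muscle genes, part of the denervation list rose, and part of the fast fibre and glycolysis lists fell. Of 24 denervation and neuromuscular junction genes, 13 rose, 4 fell and 7 did not pass, with a median of 0.82. Of all genes, 29.6% rose and 22.6% fell. That median ranged from 0.20 to 0.85 over the 10 alternative fits that left out no array. The vehicle step held 13 rises and 3 falls (median 0.50), and the AP20187 step 5 rises and 5 falls (median -0.13). Myog, a myogenic factor that denervation raises, went from 0.36 and 1.00 through 2.05 and 1.85 to 5.10 and 5.69, a 26.3-fold sum with most of the distance in the AP20187 step. Chrna1, of the acetylcholine receptor, rose in the vehicle step (log2 1.52) and had an AP20187 step of -0.24 (adjusted p = 0.112). Gadd45a, a growth arrest gene of denervated muscle, rose 14.1-fold.

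Of 19 fast fibre genes, 9 fell, none rose and 10 did not pass, with a median of -0.32, beside 22.6% of all genes that fell. Pgam2, the muscle phosphoglycerate mutase, stood at 10.07 and 9.91, then 9.25 and 9.41, then 8.35 and 8.13, a fall by 1.75 on the log2 scale with the groups apart. Casq1, the calcium store protein of fast fibres, fell by 1.55. Pvalb, a calcium buffer of fast fibres, was at 11.23 and 11.06 in wild type, 11.08 and 11.22 after vehicle, and 10.30 and 10.22 after AP20187, so that only the AP20187 arrays stood apart. Of 26 glycolysis and glycogen genes, 12 fell, 11 did not pass and 3 rose. Gbe1, the glycogen branching enzyme, was among the 3, at 4.29-fold.

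Of 19 slow fibre genes, 9 rose and 1 fell, the fall being Mb, myoglobin (log2 -1.16). Ankrd1, a stretch-responsive nuclear protein, rose 40.9-fold, from -0.49 and -0.10 through 2.51 and 2.74 to 4.97 and 5.15. Casq2, the slow and cardiac calsequestrin, rose 6.21-fold in the vehicle step and stood 3.21-fold above wild type after AP20187, a partial return. Of the atrophy and FoxO list, 11 of 20 rose and 5 fell, and its best-known ubiquitin ligases did not rise. Trim63, or MuRF1, was at 6.22 and 6.36 in wild type, 5.24 and 5.10 after vehicle, and 6.07 and 5.86 after AP20187, a small fall in the sum (log2 -0.32, adjusted p = 0.0385). That call ended under 6 of the 16 alternative fits. Ctsl, a lysosomal protease of the same list, rose 7.09-fold.

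In 8 of the 10 largest falls from wild type, the vehicle step was called and the AP20187 step was not. Actc1, cardiac actin, was at 9.69 and 9.70 in wild type, 6.71 and 6.33 after vehicle, and 5.38 and 4.64 after AP20187. It fell by 4.69 on the log2 scale, in both steps and with no overlap. Mss51, a mitochondrial protein of skeletal muscle, dropped from 4.16 and 5.04 to 0.14 and -0.07 and then to -0.42 and -0.78, a fall by 5.21 whose AP20187 step of -0.63 had an adjusted p of 0.106. Snph (at least 7.76-fold), Xrra1 (at least 5.43-fold), Fgfbp1 (at least 8.62-fold), Lrtm2 (at least 5.40-fold) and Htra4 (at least 12-fold) were above background in wild type and not in the AP20187 group. Snph, Fgfbp1, Lrtm2 and Htra4 were not above background after vehicle either, and Xrra1 was on 1 vehicle array only. A further fall in the AP20187 step could therefore not be measured for these genes. The same held for Serpina1a, which was not above background after vehicle. Serpina1a and Serpina1c, genes for a protease inhibitor best known from liver, differed widely between the wild type arrays. Serpina1a read -1.38 and 2.86 there, -4.04 and -3.87 after vehicle, and -4.36 and -3.80 after AP20187, and the fall of 4.82 had an SE of 1.11.

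Each gene was also placed by its path from wild type through vehicle to AP20187. The groups are different samples, so first, return and overshoot name steps between groups and not a course in time. Both steps and the sum were called in the same direction in 855 genes (pushed further, 538 upward at 3.97% and 317 downward at 2.34%). Opposite called steps left no called sum and under a 1.5-fold difference in 638 genes (net to no change), of which 469 rose first (3.46%) and 169 fell first (1.25%). The median of all genes was 0.09 in the vehicle step and -0.11 in the AP20187 step, the directions of those that rose first. The part of these shifts in that split was not tested. Opposite steps carried 70 genes past wild type (overshoot, 17 after a rise at 0.126% and 53 after a fall at 0.391%). A further 183 genes came back only in part (partial return, 158 at 1.17% and 25 at 0.185%). The sum was called with only the vehicle step in 2725 genes (12.9% upward, 7.22% downward), with only the AP20187 step in 1799 (7.38% and 5.91%), and with neither step in 1438 (3.75% and 6.87%). The remaining called steps had no called sum: 4.05% of genes rose and 1.17% fell in the vehicle step, and 1.09% rose and 1.96% fell in the AP20187 step.

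These class counts changed when single arrays were left out, and the vehicle arrays enter both steps with opposite sign. Without vehicle replicate 2, the genes pushed further numbered 327, net to no change 213, overshoot 33, partial return 39, AP20187 step only 1154 and sum only 3140. Without vehicle replicate 1, pushed further came to 390 and sum only to 2452. Without wild type replicate 1 the counts were 469 pushed further, 348 net to no change, 19 overshoot, 74 partial return and 1792 vehicle step only, and without wild type replicate 2 they were 541, 349, 19 and 74 for the first 4 of these. Without AP20187 replicate 1, net to no change fell to 306, partial return to 32 and AP20187 step only to 1156. Without AP20187 replicate 2, pushed further was 538 and partial return 53.

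**Figure D3:**
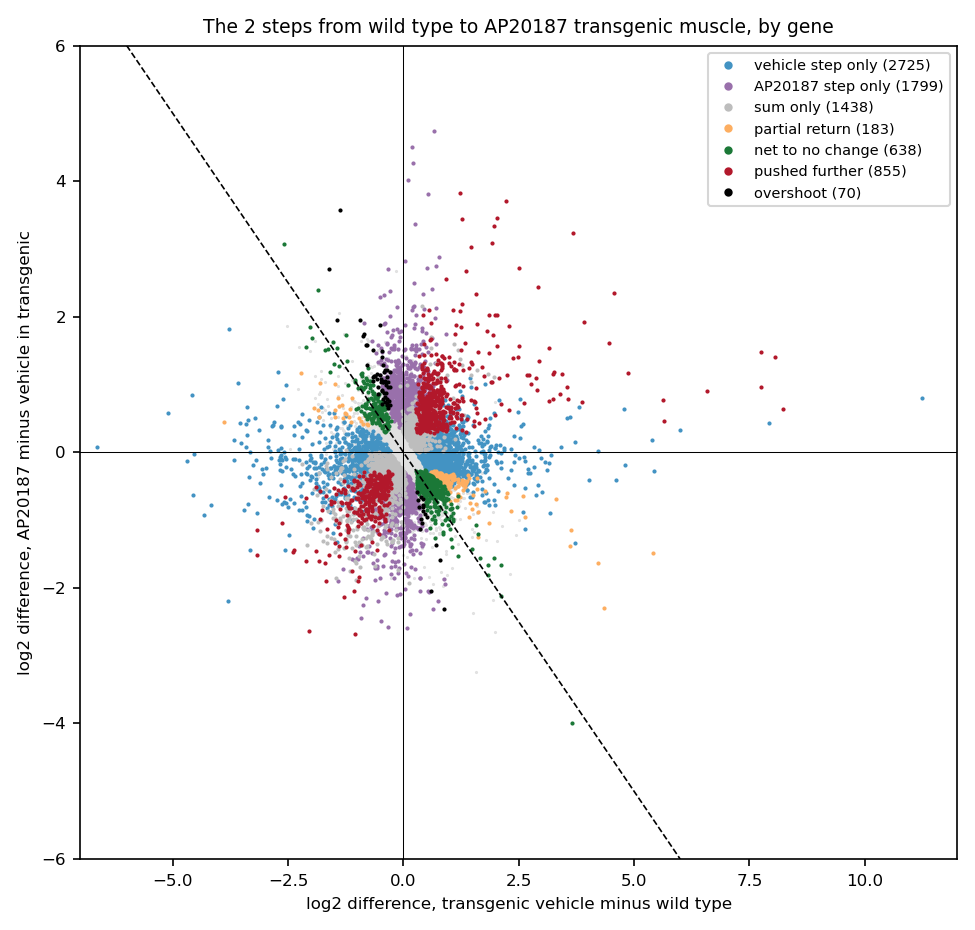
Log2 difference of 13542 genes in the vehicle step (x axis) against the AP20187 step (y axis), coloured by path class with the number of genes in brackets. On the dashed line both steps cancel, and the 638 genes that net to no change lie along it by the rule of that class. Both axes contain the vehicle arrays with opposite sign, so a slope along that line is partly built in.

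The genes pushed further upward were led by Mab21l3 (at least 30.2-fold), Srxn1, Ankrd1, Arhgap33, Ciart and Atf3, ranked by the smaller of both steps. Arhgap33 stood at -2.63 and -2.90, then 1.90 and 1.71, then 4.26 and 4.05, with no overlap between groups. Among those pushed further downward, Kcng4, a potassium channel subunit, fell from 1.23 and 1.19 through -0.70 and -0.53 to -2.23 and -2.22. Map2k6, a kinase upstream of p38, fell from 3.82 and 3.53 through 1.93 and 1.63 to 0.48 and 0.14. Ces2c and Gpr15 ended below the background call and fell at least 5.99-fold and 6.01-fold.

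Genes that returned after a first fall included regulators of insulin signalling, protein breakdown and the clock. Irs2, the insulin receptor substrate, was at 3.17 and 3.38 in wild type, 1.86 and 1.62 after vehicle, and 3.57 and 3.18 after AP20187. The vehicle arrays stood apart below, and the sum was 0.10 (95% interval -0.26 to 0.46). Fbxo32, the atrophy ubiquitin ligase also called atrogin-1, read 3.12 and 4.25, then 1.70 and 1.62, then 3.18 and 3.83. Its sum was -0.18, with an interval of -0.97 to 0.61 that admits differences beyond 1.5-fold. Arrdc3, an arrestin-like gene, fell by 1.86 and rose by 2.40, and its sum of 0.54 lay at the edge of the call (adjusted p = 0.051). Per2, a clock gene, was not well above background after vehicle (-4.98 and -5.15) and read -2.81 and -2.17 in wild type and -1.97 and -2.04 after AP20187. Tatdn2 and Gata3 completed the 6 named, with sums of -0.29 and -0.56.

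The genes named for a return after a first rise have small sums by the rule of their class, and the intervals of these sums were wide. Tceal7 was at 4.10 and 3.01, then 5.69 and 5.64, then 4.03 and 3.98, with a sum of 0.45 (95% interval -0.22 to 1.12). Ddc, the decarboxylase that makes dopamine and serotonin, read -1.64 and -1.21, then 0.68 and 0.17, then -1.40 and -1.09, and only the vehicle arrays stood apart. Lrrc4 and Polq had sums of 0.03 and 0.09. Neurog3 and Krt27 were not well above background in wild type or after AP20187, so their distance from wild type was not measured. A sum that misses the threshold does not show that wild type and AP20187 muscle were alike.

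**Figure D4:**
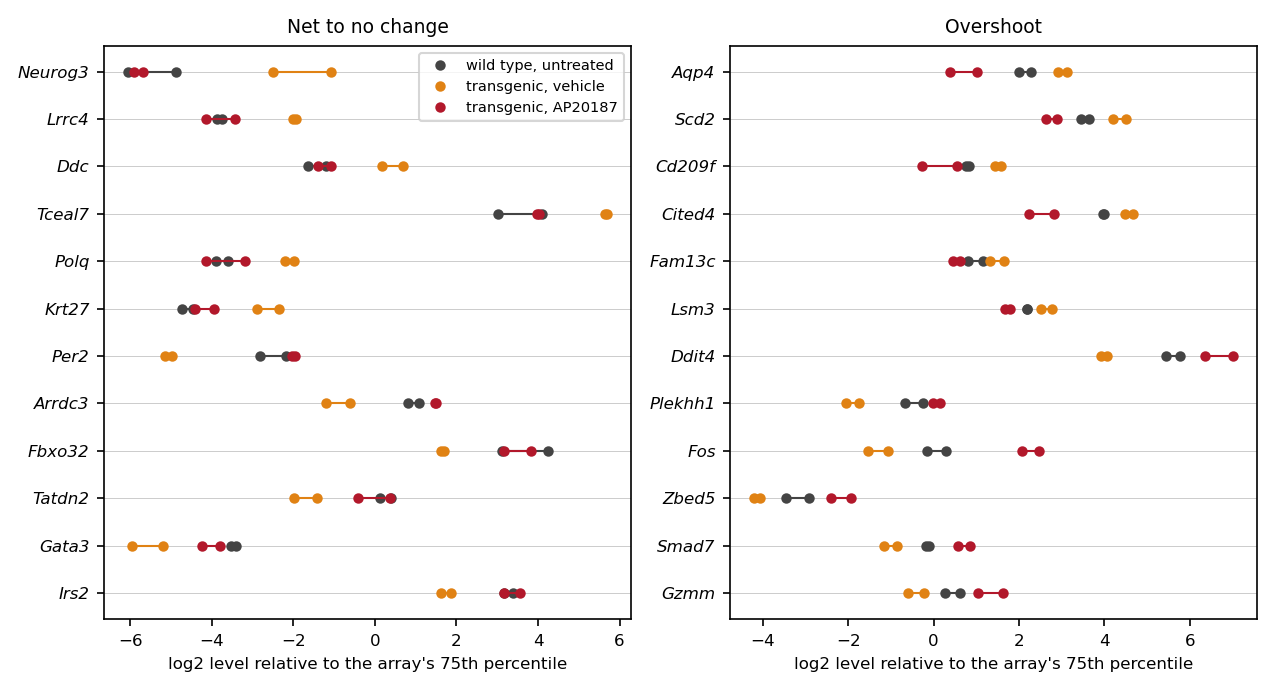
Log2 level relative to the 75th percentile of each array for the 12 named genes that net to no change (left) and the 12 that overshot (right), with 1 point per array and a line joining the 2 arrays of a group. On the left, wild type and AP20187 points lie near each other with vehicle apart, and on the right wild type lies between vehicle and AP20187. Both orders follow from the rules of the classes.

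The overshooting genes included early response genes. Fos, an immediate early transcription factor, stood at -0.15 and 0.30 in wild type, -1.54 and -1.07 after vehicle, and 2.47 and 2.07 after AP20187. It was 4.57-fold above wild type in the AP20187 group (adjusted p = 0.000181) and below wild type in the vehicle group. Ddit4, the mTORC1 inhibitor REDD1, read 5.76 and 5.43, then 3.91 and 4.06, then 6.35 and 7.01, a 2.12-fold rise. Smad7, an inhibitor of TGF-beta signalling, went from -0.17 and -0.11 to -1.16 and -0.87 and then to 0.85 and 0.56. In the opposite order, Aqp4, the water channel of fast fibres, rose from 2.00 and 2.28 to 2.91 and 3.12 and then dropped to 0.39 and 1.02. Cited4 (3.97 and 3.98, then 4.67 and 4.49, then 2.83 and 2.24) and Scd2, a fatty acid desaturase, followed it. Fos, Ddit4 and Smad7 kept this class in all 15 alternative fits with both steps, Aqp4 in 12 and Cited4, Plekhh1 and Zbed5 in 6. The calls in the sum of Cd209f, Fam13c and Plekhh1 ended under 8 or more of the 16 alternative fits, and Fam13c turned to a rise of 1.00 when probes were averaged.

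Partial return was shown by Ren1, renin, at -2.70 and -2.45 in wild type, 1.92 and 1.62 after vehicle, and -0.24 and -0.81 after AP20187, still 4.13-fold above wild type. Shisal1, Rnu3b1, Rnu2-10 and Tecrl also rose first, and the small nuclear and nucleolar RNAs Rnu2-10 and Rnu3b1 differed between the AP20187 arrays (0.17 and -1.72 for Rnu2-10). On the other side, Tbc1d1, a regulator of glucose transporter traffic, fell by 1.81 and regained 1.02. Slc25a30, Map3k6, Npc1 and Gadd45g did likewise, with sums between -1.05 and -0.47.

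The largest rises with a change in the AP20187 step alone were those of Snhg16, Myc, Bpifb3 and Snhg1, of which Snhg16 and Snhg1 are hosts of small nucleolar RNAs. Bpifb3 was well above background in the AP20187 group alone and at least 6.22-fold above wild type. Myc, a growth factor-induced transcription factor, was at -1.20 and -1.26 in wild type, -0.73 and -1.34 after vehicle, and 3.63 and 3.30 after AP20187, a 25.9-fold sum with wild type and vehicle overlapping. Snhg16 was 42.6-fold above wild type and Snhg1 stood at 1.60 and 2.65 after AP20187 against -2.42 and -2.01. Snhg12, another host gene, had also risen in the vehicle step and reached 33.1-fold. Nmrk2, a nicotinamide riboside kinase of muscle, fell by 2.97, from 7.08 and 7.43 through 6.24 and 7.29 to 4.23 and 4.34. Of 22 immediate early and growth genes, 10 rose and 4 fell, with 11 rising in the AP20187 step and 1 in the vehicle step, which held 8 falls. Egr1, an immediate early factor, was 7.21-fold above wild type with overlapping wild type and vehicle values, while Dusp1, a phosphatase of the same class, fell in both steps. Relb, a subunit of NF-kappaB, overshot from 1.31 and 1.26 through 0.88 and 0.77 to 2.39 and 2.25. In the sum 4 of 12 NF-kappaB and cytokine genes rose, a count near the 29.6% of all genes. Of 17 clock genes, 7 rose and 5 fell; the labels do not give the hour at which each mouse was killed.

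Oxidative phosphorylation, the longest functional list at 49 genes tested, gave the largest number of genes that net to no change. Among shorter lists, cytosolic heat shock held 4 such genes of 17 and the proteasome 6 of 29. The oxidative phosphorylation pattern turned on the scaling. In the vehicle step 24 of the 49 rose and none fell, beside 25.7% and 12.6% of all genes. In the AP20187 step 21 fell and none rose, beside 15% and 14.3% of all genes. The sum held 6 rises and 9 falls with a median of 0.02. The list medians were 0.31 in the vehicle step and -0.32 in the AP20187 step, against 0.09 and -0.11 over all genes. In 10 of the 49, both steps were called and the sum was not, beside 3.46% of all genes that rose first and net to no change. Sdhc, of complex II, was at 5.90 and 5.93 in wild type, 6.41 and 6.63 after vehicle, and 5.95 and 5.97 after AP20187, so that only the vehicle arrays stood apart. Quantile normalization gave 6 rises and 21 falls in the vehicle step, 1 rise and 3 falls in the AP20187 step, 5 rises and 26 falls in the sum with a median of -0.24, and no gene of the list that net to no change. Scaling on detected probes left 5 such genes and a median sum of -0.10, and the authors' deposited log2 table left 1. Leaving out vehicle replicate 1 gave 15 such genes, wild type replicate 2 gave 2, and each of the other 4 arrays gave 1. In the sum, 1 rise and 3 falls were left without AP20187 replicate 1, 1 rise and 8 falls without AP20187 replicate 2, 2 rises and 7 falls without wild type replicate 1, and 1 rise and 2 falls without wild type replicate 2. The direction of this group relative to wild type was therefore not settled. The proteasome list had 23 of 29 genes rising in the vehicle step, 9 falling in the AP20187 step and 9 rising in the sum, against 5, 2 and 5 under quantile normalization. Its medians were 0.49 in the vehicle step and -0.28 in the AP20187 step.

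Markers of other cell types moved with these differences. In muscle of whole tissue, fewer cells of a type and less RNA per cell cannot be told apart. Of 14 macrophage and leucocyte markers, 14 fell, with differences from -1.90 to -0.83 and a median of -0.98, against 22.6% of all genes that fell. Their summed level was 5.67 and 5.58 in wild type, 5.35 and 5.52 after vehicle, and 4.55 and 4.61 after AP20187, and 12 of the 14 fell in the AP20187 step. Cd74, of antigen presentation, read 3.49 and 3.36, then 2.91 and 3.14, then 2.15 and 1.87, and C1qa, a complement gene of macrophages, fell by 1.21. Quantile normalization and the arrays left out in turn gave 13 or 14 falls. Of 5 lymphocyte markers 3 fell and 2 did not pass.

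Of 16 fibroblast and matrix markers, 10 fell and none rose, with a median of -0.63. Without wild type replicate 1 the falls numbered 6, and without AP20187 replicate 2 they numbered 5. Thbs4, a matrix protein of tendon and muscle, fell by 1.44, and the tendon genes Scx and Tnmd fell by 0.84 and 0.89. No endothelial (10) or adipocyte (10) marker changed, and 2 of 8 smooth muscle markers rose. Of the 10 muscle fibre markers, 4 fell (Mb, Ttn, Mylpf and Acta1), and 2 fell when wild type replicate 1, wild type replicate 2 or AP20187 replicate 2 was left out. Their summed level was 13.22 and 13.03 in wild type and 13.06 and 12.86 after AP20187. The part of any cell type in the differences of other genes was not tested.

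Of 19 cell cycle genes tested, 13 fell and 2 rose, with a median of -0.88, beside 22.6% of all genes that fell. That median ranged from -1.08 to -0.46 over the 10 alternative fits that left out no array. All 19 were well above background on both wild type arrays, 14 on both vehicle arrays and 14 on both AP20187 arrays. The median therefore includes genes near or below background in the transgenic groups. In the vehicle step 12 fell and 4 rose, beside 12.6% and 25.7% of all genes. The summed level of the list was 4.58 and 4.63 in wild type, 4.62 and 4.62 after vehicle, and 4.35 and 4.41 after AP20187, with the vehicle arrays beside wild type. Aurka, a mitotic kinase, was at 1.96 and 1.99 in wild type, 0.08 and 0.08 after vehicle, and -0.32 and -0.54 after AP20187. Mki67, the proliferation marker Ki-67, fell by 2.26 with a log2 AP20187 step of -0.21 (adjusted p = 0.668). Ccnb2, cyclin B2, was well above background in wild type alone and fell at least 8.58-fold. Slc4a1, the anion exchanger of red cells, fell by 2.83, while the other 3 erythroid markers did not pass the test.

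**Figure D5:**
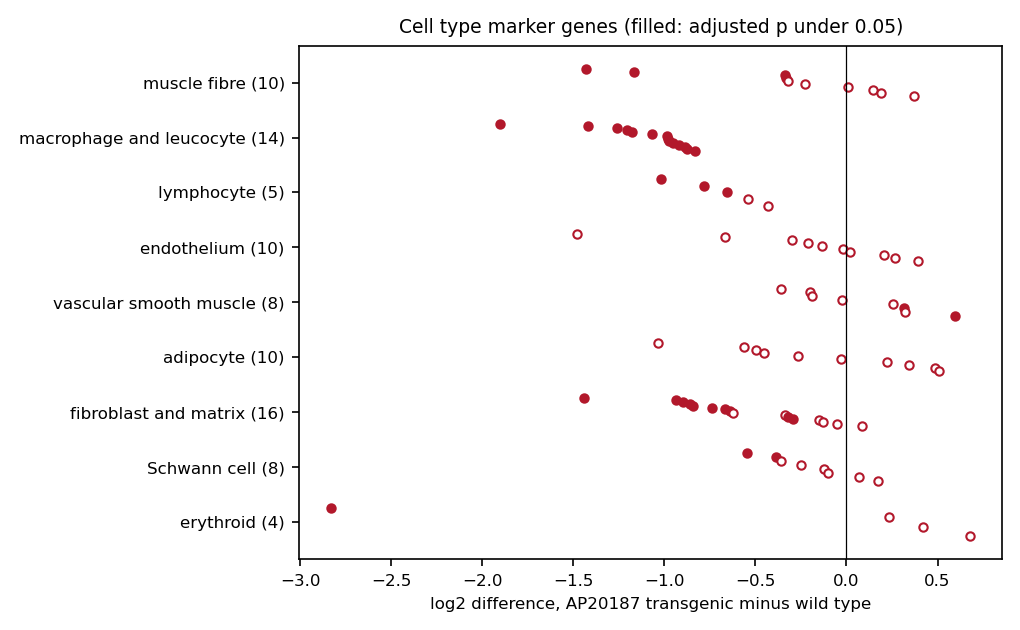
Log2 difference between AP20187 transgenic and wild type muscle for each tested marker gene of 9 cell types (number tested in brackets), filled where the adjusted p was under 0.05. All 14 macrophage and leucocyte markers lie left of 0, while the endothelial and adipocyte markers spread over both sides and none is filled.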

How the data were processed

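RNA of 6 muscle samples (150 ng each) was measured on single-colour Agilent mouse arrays. Per the file headers, the scanner files hold linear spot intensities from which Feature Extraction (Agilent, version 10.7.1.1) had subtracted background. The authors' deposited table holds log2 values of the same arrays, whose scale and direction followed the scanner values and whose baseline is unknown. From the intensities, control spots and spots with an outlier flag were left out, spots of a probe were averaged, and log2 minus the 75th percentile of the array was taken. RefSeq accessions were named through a GRCm38.p6 table, used for names and for promoters, which gave 26056 of 55681 probes a symbol. The probe brightest on average over all 10 arrays of the series stood for a gene. Genes were tested where 1 muscle group or more had both arrays well above background.

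The 6 arrays (3 residual degrees of freedom) were fitted with limma 3.58.1 in R 4.3.3, with eBayes and a variance trend, and the fit was tested on simulated data. The number of arrays limits the precision. The members and gene lists were chosen with earlier results of these data known. Named genes were drawn from the 10 largest rises and 10 largest falls (clone, predicted and olfactory names left out), up to 4 changed members of each list by smallest p, for path classes 6 genes per direction by the smaller step or 4 by the sum, and 11 ISR genes whatever their test. Nupr1, Sesn2, Vldlr, Ppp1r15b, Sdhc, Trim63 as an atrophy gene and the chaperones that did not pass were named after their values were seen. Alternatives covered background, scaling, filter, probes, samples and blocks. Of the genes this rule selects, not every one is described, and 1 is not reported here.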

Additional observations from a re-analysis of the deposited data

How the results depend on the processing

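The 7070 differing genes stayed within 1.5 times under every alternative fit (4220 higher and 2987 lower with normexp background, 3841 and 3090 with quantile normalization, 3893 and 2772 in the authors' deposited table). With at least 2-fold differences alone the counts were 2372 in the sum (1188 higher, 1184 lower), 1132 in the vehicle step and 718 in the AP20187 step. The path classes then held 97 genes pushed further, 31 net to no change, 2 overshooting, 6 in partial return, 601 of the vehicle step only, 321 of the AP20187 step only and 350 of the sum only, and 9 chaperones of the endoplasmic reticulum and 2 ribosomal proteins rose and 6 macrophage markers fell. Net to no change held 421 genes with normexp and 315 in the deposited table. Partial return held 100 with normexp, 100 without a filter on dim probes, 85 with quantile normalization and 61 in the deposited table. Overshoot held 114 when scaled on detected probes. Leaving out each array in turn gave 3149 to 5202 genes in the vehicle step, 1869 to 3273 in the AP20187 step, 327 to 598 pushed further, 213 to 526 net to no change, 19 to 57 overshooting, 32 to 178 in partial return, 1792 to 2778 of the vehicle step only, 1154 to 1543 of the AP20187 step only and 1203 to 3140 of the sum only. A left-out array leaves its group with 1 sample, assumed to vary like the others. Of the 638 genes that net to no change, 21.79% kept that class without vehicle replicate 2.

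The labels do not say that a replicate number marks a shared animal, litter or day, and deviations of same-numbered arrays correlated at 0.05 (wild type and vehicle), 0.16 (wild type and AP20187) and 0.20 (vehicle and AP20187), so the numbers were not taken as pairs. With the replicate block, 4555 genes were higher and 3549 lower in the sum, 1378 were pushed further, 1000 net to no change, 196 overshot and 500 returned in part. The slide as a block was not run, since it could not be fitted with 1 genotype on each slide. Fam13c turned from -0.45 to a rise of 1.00 with the mean over probes; the cause was not tested. Of 186 named genes that changed, 159 kept their side of the threshold in all 16 alternative fits. Genes not well above background have bounds only.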

Other observations

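Other gene lists held both rises and falls between AP20187 transgenic and wild type muscle. Their counts are read against 29.6% of all genes that rose and 22.6% that fell. Of 19 growth arrest and apoptosis genes, 9 rose and 5 fell. Bbc3, which encodes the pro-apoptotic protein PUMA, stood at -0.41 and -0.07 in wild type, 0.06 and -0.06 after vehicle, and 2.69 and 2.31 after AP20187, a 6.68-fold rise seen in the AP20187 group alone. Bax, a pore-forming partner in the same pathway, rose 2.48-fold, mostly in the vehicle step. Of 23 autophagy and lysosome genes, 12 rose and 2 fell. Gabarapl1, an autophagosome protein, rose 2.56-fold, and Sqstm1, an autophagy receptor, rose 1.67-fold, both with a change in the AP20187 step and not in the vehicle step.

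Of 17 cytosolic heat shock genes, 7 rose, 3 fell and 4 net to no change, and 4 rose under quantile normalization. Hspb7, a small heat shock protein of muscle, read 3.96 and 3.25, then 4.89 and 4.83, then 4.90 and 4.88. Of 32 genes of fatty acid uptake and oxidation, 10 rose and 5 fell, with a median of 0.21 that was -0.03 under quantile normalization. Of 20 sterol synthesis genes, 5 rose and 4 fell. By count, the fatty acid and sterol lists were not set apart from all genes. Of 19 myogenic genes, 9 fell and 5 rose, among the falls Jph2, a junction protein of the calcium release unit (log2 -1.28).

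Genes best known from liver, chosen after their values were seen, differed between both wild type arrays. Serpina1c read -1.87 in wild type replicate 1 and 2.67 in replicate 2, and from -5.84 to -3.24 on the 4 transgenic arrays. Alb, serum albumin, read -4.19 and 1.37 in wild type and from -4.95 to -1.74 in transgenic muscle. Mup19 read 2.70 and 5.08 in wild type against 1.08 and 0.62 after AP20187. Apoa2, an apolipoprotein, was closer between the wild type arrays (3.67 and 3.98) and lower after AP20187 (3.11 and 2.95). The source of these transcripts was not tested.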
